A study of Mus musculus with 12 samples.

Results

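Trp53, the gene for p53, and 6 genes whose products feed back on p53 were followed through the embryonic mouse pallium after loss of the minor spliceosome RNA U11. The 7 symbols, Trp53, Mdm2, Mdm4, Ppm1d, Ccng1, Trp53inp1 and Rchy1, were taken as a named set, and all 7 were found among the 54735 symbols of every library. The pallium is the dorsal telencephalon, the tissue that forms the cortex. RNA came from 12 C57/Bl6 embryos at E13.5, 4 in each of 3 groups, and all 12 carried Emx1-Cre, a recombinase expressed in the progenitors of the pallium. Control embryos had 1 floxed and 1 wild-type allele of Rnu11, the gene for U11, with wild-type Trp53. In cKO embryos both alleles of Rnu11 were floxed and Trp53 was wild type. In dKO embryos both alleles of each gene were floxed. The control group therefore carries a deleted Rnu11 allele in the Cre lineage, no group lost Trp53 alone, and cells outside the Emx1 lineage (microglia, vessel cells, blood) are not expected to recombine. The labels do not state which exons of Trp53 are floxed, nor whether embryos shared litters.

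p53 is a transcription factor that is made constantly and destroyed constantly. Mdm2 and Rchy1 are ubiquitin ligases that mark it for destruction, and Mdm4, a relative of Mdm2, binds its activation domain and works with Mdm2. Stress signals loosen this hold, p53 accumulates, and it switches on genes for arrest, death and repair. Among the genes it switches on are its own restraints: Mdm2, Rchy1, the phosphatase gene Ppm1d (Wip1), which removes activating phosphates from p53 and its kinases, and Ccng1 (cyclin G1), which brings a phosphatase to Mdm2. Trp53inp1 is a p53 target that acts the other way, helping kinases to phosphorylate p53. In cortical progenitors p53 is known for driving cell loss after genetic damage to division or RNA processing.

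Values are TPM, a measure of transcript abundance that scales each gene for its length and each library to a fixed sum of 1000000. The depth of the libraries is unknown, so no counting interval is given. Rnu11 stood between 521 and 724 TPM in control, between 115 and 159 in cKO and between 142 and 199 in dKO, so each mutant embryo lay below each control. The short RNAs Rn7s2 and Rn7sk together took 43.4% to 52.4% of a library, and nuclear protein-coding genes 14.4% to 19.99%. Log2 changes are differences in log2(TPM + 1), tested in the 11764 genes whose mean over the 12 libraries reached 1 TPM. With control as the base, the median gene changed by 0.25 in cKO and by -0.01 in dKO; with cKO as the base it changed by -0.26 in dKO. This shift is common to most genes, so each change is read against it, and centred values, in which the shift is removed from each library, are given beside those as deposited.

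The promoter windows of these genes were searched for the p53 recognition motif, since p53 is known to switch on several of them. The motif is a tandem of 10-base units, and 8 windows of 300 bases (250 before a transcript start and 50 after it) were in the RefSeq table on GRCm38.p6 for 6 of the 7 genes; Trp53inp1 had no entry. An exact 10-base unit, the same consensus on either strand, was found in 5 of the 8 windows, 1 each for Ccng1, Mdm2, Ppm1d, Trp53 and Rchy1, against 8.36% of the 32851 windows in the table. The set was named for its known ties to p53, so a share above that of all windows is not independent evidence. A 20-base tandem with no spacer and at most 1 mismatch was found in the window of Ccng1 alone among these, and in 29 of all windows (0.0883%). The stretches around 4 of the matches are shown, those of Ccng1, Mdm2, Ppm1d and Trp53. The match of Rchy1 is not shown, and neither window of Mdm4 held an exact unit. Whether the matches bear on the changes in RNA was not tested. Capitals mark the 20-base tandem in Ccng1 and the exact 10-base unit in the others. Each is written 5′ to 3′ on the strand of its gene.
Ccng1, chr11:40755427-40755516, minus strand: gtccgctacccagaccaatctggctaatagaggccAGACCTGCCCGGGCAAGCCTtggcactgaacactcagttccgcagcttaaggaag
Mdm2, chr10:117710900-117710979, minus strand: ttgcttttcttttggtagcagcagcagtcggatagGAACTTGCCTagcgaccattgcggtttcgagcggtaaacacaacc
Ppm1d, chr11:85311087-85311166, plus strand: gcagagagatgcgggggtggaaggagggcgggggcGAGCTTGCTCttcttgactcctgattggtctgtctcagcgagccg
Trp53, chr11:69580249-69580328, plus strand: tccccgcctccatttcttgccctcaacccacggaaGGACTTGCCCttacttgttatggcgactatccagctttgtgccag
The matches begin 195 bases before the transcript start in Ccng1, 186 in Mdm2, 132 in Ppm1d and 75 in Trp53. A match is a description of letters and not of binding, and the windows do not reach the first intron of Mdm2, where a p53-responsive promoter is known.

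In cKO the RNA of the feedback regulators was higher than in control, by 5.76 times for Ccng1 and 1.33 times for Ppm1d, while Trp53 itself was not called. As deposited, 6 members were called higher than in control (adjusted p under 0.05 in limma, over all 11764 genes) and none lower; 34.3% of all genes were called higher by the same rule, so the count alone says little. With the shift removed by centring, 4 of the 7 were called higher (Ccng1, Trp53inp1, Mdm2 and Rchy1), against 3.72% of all genes. Protein-coding rescaling, which brings the summed TPM of protein-coding genes to one value, gave 5 calls (these and Mdm4) against 11.3% of all genes. The median change of the 7 genes was 0.63 as deposited and 0.38 centred, beside 0.25 and 0.00 (-0.0034 before rounding) for all genes. The 4 cKO embryos lay above all 4 controls for 6 of the 7 genes, Trp53 being the exception, as they did for 32.7% of all genes. The 7 genes were chosen with earlier results of these data known, so their shares are not independent evidence.

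**Figure D1:**
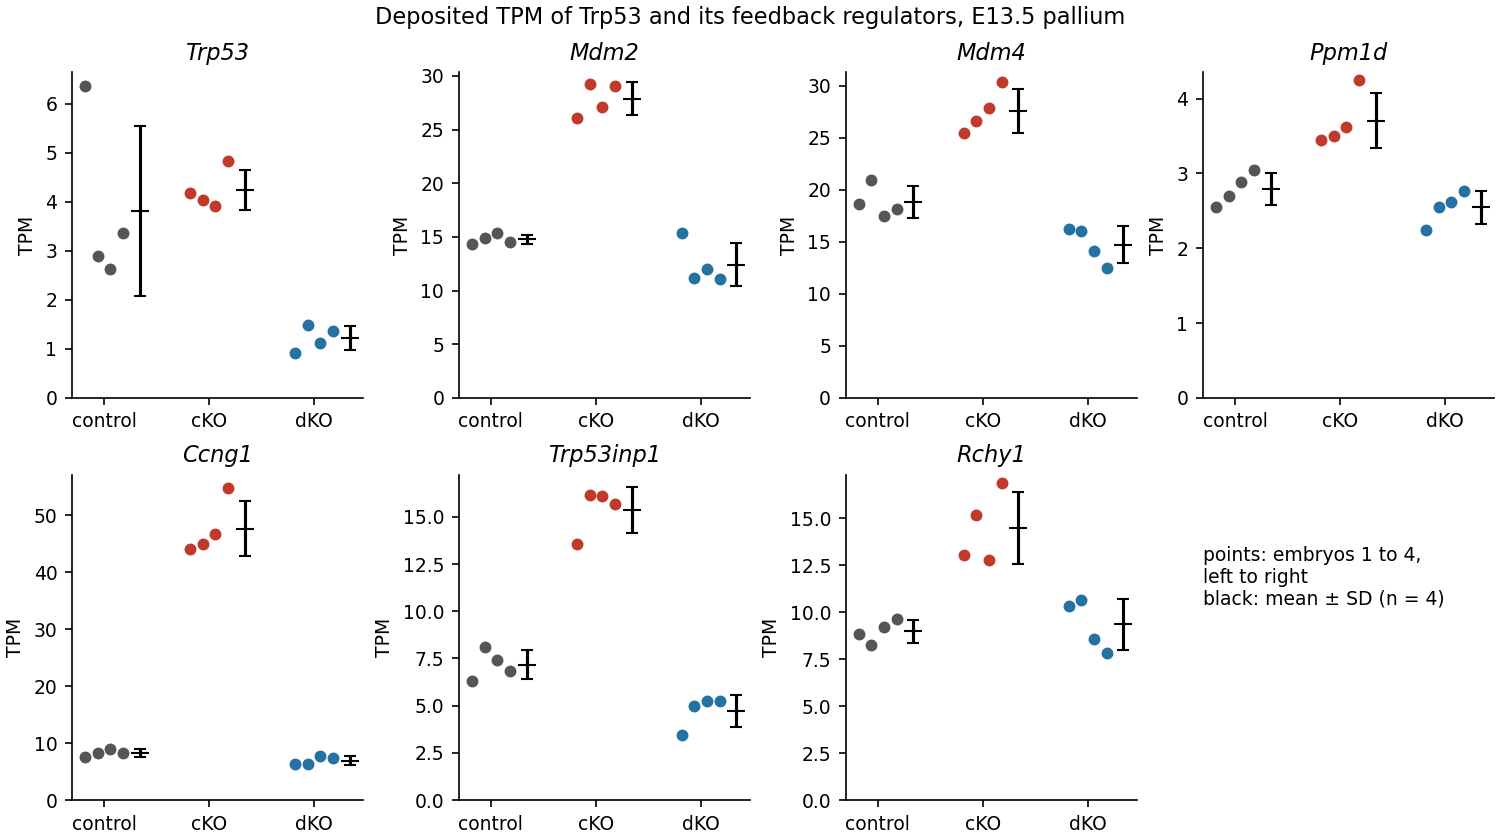
Deposited TPM (vertical axes, from 0) of the 7 genes in each embryo of the control, cKO and dKO groups; points run from embryo 1 to 4 and black bars are the mean ± SD (n = 4). For Ccng1 the cKO embryos lie between 44.2 and 54.7 TPM and the other 8 between 6.30 and 9.06, whereas for Trp53 the dKO embryos are the low group, at 0.920 to 1.49.

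Trp53 RNA fell where the gene was floxed, and cKO could not be told from control beyond the spread of embryos. On chr11:69580359-69591873 (plus strand, GRCm38, 6 annotated transcripts), it stood at 6.37, 2.90, 2.63 and 3.37 TPM in controls 1 to 4, at 4.18, 4.04, 3.92 and 4.83 in cKO and at 0.920, 1.49, 1.13 and 1.36 in dKO. Control embryo 1 was above every other embryo of the study, and the dKO embryos were below all others. The log2 change of cKO against control was 0.18 ± 0.18 (SE; 95% interval -0.22 to 0.58; limma adjusted p = 0.439) as deposited and -0.07 centred, so its direction turned with the scaling. Control embryo 1 decided this comparison: without it the deposited change was 0.40 (limma adjusted p = 0.0190), and with centring as well it was 0.13 (adjusted p = 0.480). In dKO, Trp53 was lower than in control by -1.06 ± 0.18 (SE; limma adjusted p = 0.00621) and lower than in cKO by -1.24 ± 0.18 (adjusted p = 0.000765).

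The RNA left in dKO was 24.1%, 39.1%, 29.6% and 35.6% of the control mean for Trp53 in embryos 1 to 4, and 22.6%, 22.2%, 26.4% and 31.0% for Rnu11 in the same embryos. Both RNAs were still present in each dKO embryo, in tissue where cells outside the Cre lineage keep their alleles. A value per gene does not separate the floxed exons of Trp53 from the others, so RNA of the recombined allele may be counted in its residue. In bulk tissue, fewer cells of a type and less RNA per cell cannot be told apart. The neighbour Wrap53, which encodes a telomerase and Cajal body protein and starts 103 bases from Trp53 on the opposite strand, did not follow it. Control embryos had 3.89, 3.12, 3.94 and 4.23 TPM of Wrap53, cKO embryos 6.24, 6.09, 5.34 and 7.24, and dKO embryos 4.41, 4.43, 4.18 and 4.43, so the cKO embryos were above all others. Its change was 0.59 in cKO (limma adjusted p = 0.00134; centred 0.34, adjusted p = 0.0119) and 0.17 in dKO against control (adjusted p = 0.351). Trp53-ps, a processed copy of Trp53 that could share reads, reached at most 0.0558 TPM in any library.

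Mdm2, the main ligase of p53, rose in cKO and in dKO was not called different from control. On chr10:117688875-117710758 (minus strand, 9 annotated transcripts), it stood at 14.3, 14.9, 15.3 and 14.5 TPM in controls, 26.1, 29.2, 27.1 and 29.05 in cKO, and 15.4, 11.1, 12.002 and 11.1 in dKO. The cKO embryos formed a separate high group with a mean 1.89 times that of control, and dKO embryo 1 was the only dKO embryo at the control level. The log2 change of cKO was 0.87 ± 0.098 (SE; 95% interval 0.66 to 1.08; limma adjusted p = 0.000147), and 0.62 centred (adjusted p = 0.00257). Gene-level values sum transcripts from both known Mdm2 promoters, so the p53-responsive one is not resolved.

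Mdm4, the relative of Mdm2 that lacks strong ligase activity of its own, moved in the same direction by less in cKO against control. On chr1:132959484-133030561 (minus strand, 14 annotated transcripts), it stood at 18.6, 20.97, 17.4 and 18.2 TPM in controls, 25.4, 26.6, 27.9 and 30.4 in cKO, and 16.2, 16.05, 14.2 and 12.5 in dKO. The 3 groups did not overlap, with cKO highest and dKO lowest. The change in cKO was 0.53 ± 0.099 (SE; limma adjusted p = 0.00285), but 0.28 after centring (adjusted p = 0.107), so the call did not survive removal of the common shift. The pseudogenes Mdm4-ps and Gm29257, the latter inside Mdm4, reached at most 0.337 TPM in any library.

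Because Mdm2 and Mdm4 act as a pair, their ratio was compared within each library, where scaling cancels. The ratio of Mdm2 to Mdm4 was 0.769, 0.708, 0.880 and 0.801 in controls, 1.03, 1.10, 0.972 and 0.955 in cKO, and 0.950, 0.693, 0.848 and 0.892 in dKO. Control embryos had more Mdm4 than Mdm2 in 4 of 4 libraries, whereas in cKO the levels were about equal, Mdm2 being higher in 2 of 4. The mean log2 ratio of control embryos was -0.35 ± 0.13, that of cKO embryos 0.02 ± 0.091 and that of dKO embryos -0.25 ± 0.20 (SD, n = 4 each). The cKO ratio exceeded that of control by 0.36, with no overlap between embryos (exact two-sided permutation p = 0.0286, the smallest that 4 against 4 allows; 0.0429 after Benjamini-Hochberg adjustment over 3 comparisons). The dKO ratio was below that of cKO (difference -0.27, exact permutation p = 0.0286, adjusted 0.0429), and dKO and control overlapped (difference 0.09, exact permutation p = 0.457). Neither call against cKO survived the loss of any single cKO embryo (exact permutation, adjusted p = 0.0857 each time), with differences of 0.32 to 0.39 from control and -0.30 to -0.23 for dKO. The dKO difference from cKO also lost its call without dKO embryo 2, which moved it to -0.18 (exact permutation, adjusted p = 0.0857). In each of these cases the cKO embryos kept still lay above all control and dKO embryos kept. The call of cKO against control was kept when any single control embryo was left out. The difference between dKO and control was 0.035 without dKO embryo 1, 0.19 without dKO embryo 2, 0.043 without control embryo 2 and 0.15 without control embryo 3, and was not called in any of these.

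**Figure D2:**
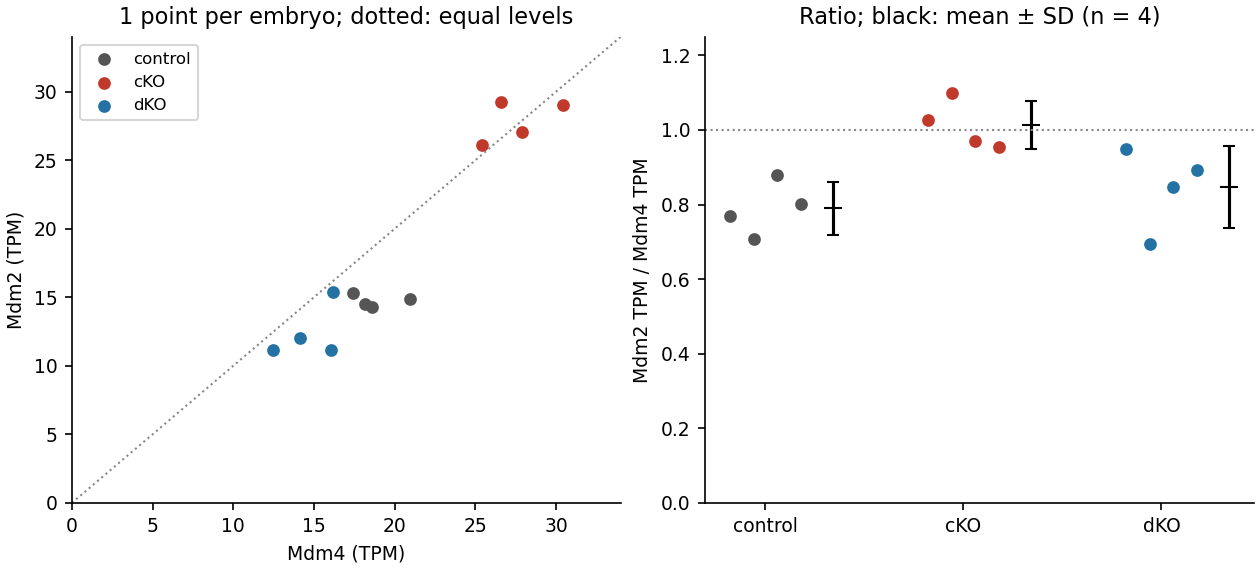
Left, Mdm2 against Mdm4 TPM with 1 point per embryo and a dotted line of equal levels; right, the ratio of Mdm2 to Mdm4 TPM per embryo, with the mean ± SD (n = 4) in black. The cKO embryos lie around the line of equal levels, at ratios of 0.955 to 1.10, and all controls lie under it, at 0.708 to 0.880.

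Rchy1 (Pirh2), a ligase that can act on p53 without Mdm2, rose in cKO and lay around the control level in dKO. On chr5:91948904-91963068 (minus strand, 5 annotated transcripts), it stood at 8.83, 8.24, 9.19 and 9.65 TPM in controls, 13.1, 15.2, 12.8 and 16.9 in cKO, and 10.3, 10.7, 8.57 and 7.85 in dKO. The cKO embryos were all above the controls, while the dKO values lay on both sides of them. The change in cKO was 0.63 ± 0.11 (SE; limma adjusted p = 0.00232) and 0.38 centred (adjusted p = 0.0209). Between dKO and control it was 0.05 (95% interval -0.20 to 0.29; limma adjusted p = 0.871). Rchy1 shares 680 bases with Thap6, a transcribed pseudogene on the other strand, and contains Gm43039; Thap6 stood between 0.335 and 0.735 TPM and Gm43039 between 0.434 and 1.02, both well under Rchy1.

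Ppm1d, the phosphatase, changed least among the 6 regulators in cKO against control. On chr11:85311244-85347066 (plus strand, 2 annotated transcripts), it stood at 2.55, 2.70, 2.88 and 3.04 TPM in controls, 3.45, 3.50, 3.62 and 4.25 in cKO, and 2.25, 2.54, 2.61 and 2.77 in dKO. The cKO embryos were above all others, but the change of 0.31 ± 0.080 (SE; limma adjusted p = 0.0133) was close to the shift of the median gene. Centring left 0.06 (95% interval -0.097 to 0.22; limma adjusted p = 0.697) and protein-coding rescaling 0.19 (adjusted p = 0.131). Between dKO and control it was -0.10 (95% interval -0.27 to 0.075; limma adjusted p = 0.552).

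Ccng1 showed the largest change of the set and, on the log2(TPM + 1) scale, the ninth largest increase among all 11764 tested genes. On chr11:40748552-40755311 (minus strand, 2 annotated transcripts), it stood at 7.50, 8.33, 9.06 and 8.23 TPM in controls, 44.2, 45.03, 46.7 and 54.7 in cKO, and 6.30, 6.32, 7.74 and 7.44 in dKO. The cKO mean was 5.76 times that of control, and no cKO embryo came near the other 8. The log2 change was 2.39 ± 0.096 (SE; 95% interval 2.18 to 2.60; limma adjusted p = 2.26e-08) and 2.14 centred (adjusted p = 6.45e-08). Its paralog Ccng2 had 7.60 ± 0.127 TPM in control embryos and 8.35 ± 0.737 in cKO embryos (SD, n = 4 each), a change of 0.12 (limma adjusted p = 0.249). In dKO embryos Ccng2 had 6.11 ± 0.573 TPM. It was not called against control as deposited (-0.28, limma adjusted p = 0.0651) and was called lower after centring (-0.26, adjusted p = 0.0396). The log2(TPM + 1) scale shrinks the changes of genes at low TPM, so Ccng1 is not ranked by ratio here. Sesn2, for example, went from a mean of 0.505 TPM in control to 4.01 in cKO, with a change of 1.73.

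Trp53inp1, the member that favours p53 activity, rose in cKO and fell under the control level in dKO. On chr4:11156431-11174379 (plus strand, 4 annotated transcripts), it stood at 6.33, 8.13, 7.40 and 6.84 TPM in controls, 13.6, 16.1, 16.1 and 15.7 in cKO, and 3.47, 4.98, 5.25 and 5.24 in dKO. The 3 groups did not overlap. Its change was 1.00 ± 0.12 (SE; limma adjusted p = 0.000174) in cKO and 0.75 centred (adjusted p = 0.00269). Its paralog Trp53inp2 had 1.69 ± 0.419, 1.93 ± 0.255 and 1.497 ± 0.689 TPM in control, cKO and dKO (SD, n = 4 each) and was not called in either comparison with control (limma adjusted p = 0.570 and 0.734).

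**Figure D3:**
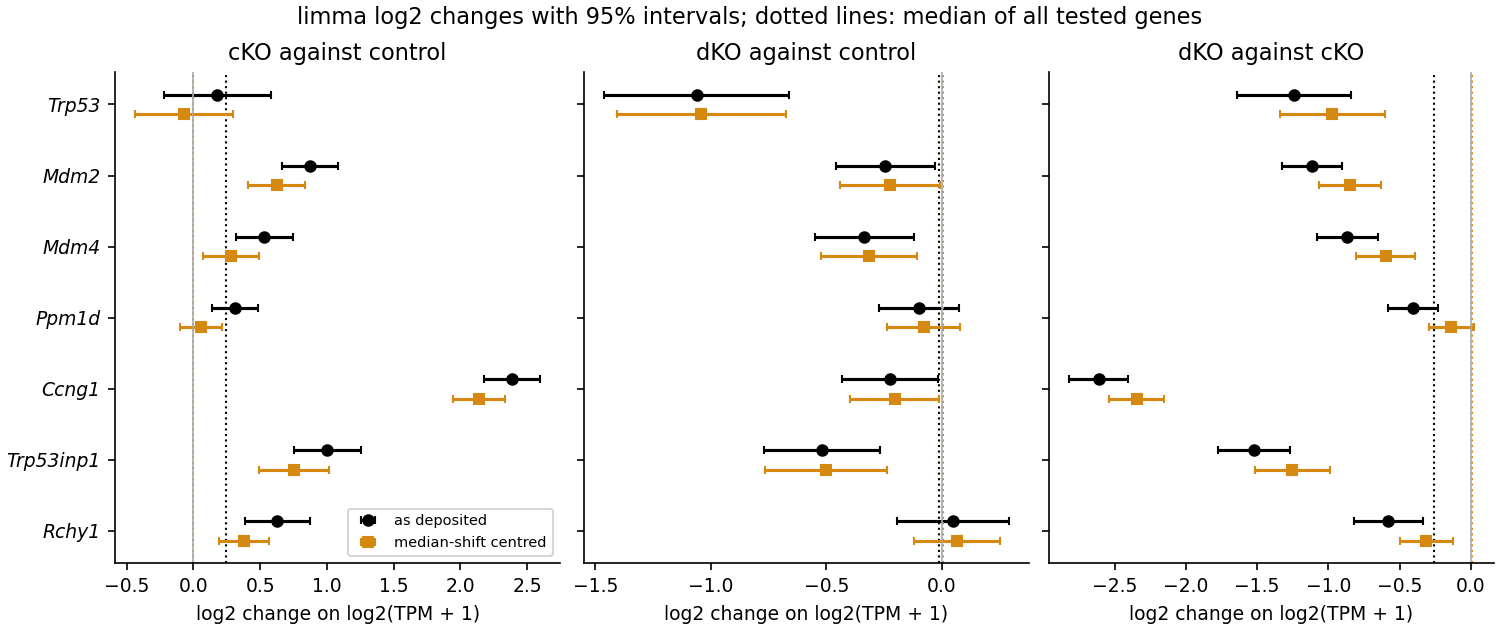
Log2 changes on log2(TPM + 1) of the 7 genes (points) with 95% limma intervals in the 3 comparisons, as deposited (black circles) and median-shift centred (orange squares); dotted lines mark the median of all tested genes on each scale. In cKO against control Ccng1 stands far to the right at 2.39, while the interval of Ppm1d spans the dotted line at 0.25; in dKO against control Trp53 (-1.06) and Trp53inp1 (-0.52) are the lowest.

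Between dKO and control, the question was how these genes stood once Trp53 was deleted together with Rnu11. None of the 7 genes was called higher in dKO, and 2 were called lower, Trp53 and Trp53inp1, against 3.40% of all genes called lower as deposited. The same 2 were called lower after centring (background 4.69%), and Trp53 alone after protein-coding rescaling (background 3.74%). Trp53inp1 was lower by -0.52 ± 0.12 (SE; 95% interval -0.77 to -0.27; limma adjusted p = 0.0222), with a mean 66.0% of control. This call is close to the threshold: it was lost without control embryo 2, 3 or 4 (adjusted p = 0.0679, 0.0673 and 0.0537), with rescaling (0.0528), with no filter on low values (0.0552) and in a fit of these 2 groups alone (0.0572). Mdm4, Mdm2 and Ccng1 had dKO means of 78.3%, 84.0% and 84.0% of control and were not called (limma adjusted p = 0.0705, 0.181 and 0.210); without dKO embryo 1 Mdm2 was called lower (adjusted p = 0.0235). Their unadjusted 95% intervals, -0.55 to -0.12, -0.46 to -0.032 and -0.43 to -0.017, lie below 0. All 4 dKO embryos lay below all 4 controls for 3 of the 7 genes (Trp53, Mdm4 and Trp53inp1), and for 8.44% of all genes.

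Set against cKO, dKO embryos had less RNA of each of the 7 genes. As deposited all 7 were called lower, against 38.8% of all genes; 5 were called after centring (Trp53, Mdm2, Mdm4, Ccng1 and Trp53inp1; background 3.83%) and 6, these and Rchy1, after protein-coding rescaling (background 8.28%). All 4 dKO embryos lay below all 4 cKO embryos for all 7 genes, and for 32.8% of all genes. Ccng1 fell by 2.61 on the log2 scale (limma adjusted p = 7.55e-09), Trp53inp1 by 1.52 (8.52e-06), Mdm2 by 1.12 (2.41e-05), Mdm4 by 0.87 (0.000184), Rchy1 by 0.58 (0.00279) and Ppm1d by 0.41 (0.00310). Ppm1d is the member whose call depended most on scaling here (-0.14 centred, adjusted p = 0.274), and Rchy1 was at the threshold after centring (-0.31, adjusted p = 0.0535). This comparison and that of cKO with control share the cKO embryos, so the opposite signs in the 2 are not independent.

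The order of the 7 genes by level, compared per length, was not the same in cKO as in control. Between control and dKO only Trp53 and Ppm1d, which overlapped in control, changed places. In control it ran from Mdm4 (18.8 TPM) over Mdm2 (14.8), Rchy1 (8.98), Ccng1 (8.28), Trp53inp1 (7.18) and Trp53 (3.82) to Ppm1d (2.79). Among these neighbours, Mdm4 and Mdm2, and Mdm2 and Rchy1, did not overlap between embryos, and the other 4 neighbouring pairs did. In cKO Ccng1 led at 47.6 TPM, followed by Mdm2 (27.9) and Mdm4 (27.6), which overlapped, then Trp53inp1 (15.4) and Rchy1 (14.5), which overlapped, then Trp53 (4.24) and Ppm1d (3.71), which overlapped in range although Trp53 was the higher in 4 of 4 embryos. In dKO Ccng1 stood between Rchy1 and Trp53inp1, as in control, and Trp53 was last at 1.22 TPM, below Ppm1d (2.54) in 4 of 4 embryos.

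Among all 11764 tested genes ordered by the deposited change in log2(TPM + 1) in cKO against control, from the highest, Ccng1 ranked 9, Trp53inp1 164, Mdm2 246, Rchy1 684, Mdm4 1123, Ppm1d 4190 and Trp53 7578. From the lowest change in dKO against control, Trp53 ranked 88, Trp53inp1 442 and Mdm4 955. Among the members themselves, centred profiles were most alike for Mdm2 and Ccng1 (r = 0.927 over 12 embryos), Ccng1 and Trp53inp1 (0.919) and Mdm2 and Mdm4 (0.887), and least for Trp53 and Rchy1 (0.151) and Ppm1d and Rchy1 (0.204).

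The genes whose centred profiles over the 12 embryos were most like each member differed from one member to the next; the embryos fall into 3 genotypes, so these correlations mostly describe differences between groups. For Ccng1 they were Eda2r, a death receptor gene and p53 target (r = 0.998), Ano3, an anoctamin gene (0.986), and Inka2, a kinase inhibitor gene (0.982). Eda2r stood at 0.835, 11.6 and 0.533 TPM in control, cKO and dKO, a pattern of the same shape at a lower level. For Mdm2 they were Bax (0.971), Aen (0.958) and Polk (0.954), 3 known p53 targets for cell death and DNA repair. For Trp53inp1 they were Plch2 (0.968), Exoc4 (0.965) and Khdrbs2 (0.959); Exoc4, an exocyst subunit gene, stood at 7.22, 15.6 and 5.48 TPM in control, cKO and dKO. For Mdm4 they were Uggt2 (0.938), Rbm5 (0.929) and Fam227a (0.919), for Rchy1 Lmbr1l (0.917), Rxylt1 (0.907) and Ddias (0.907), for Ppm1d Ubxn6 (0.888), Phtf1 (0.839) and Ngly1 (0.820), and for Trp53 Odc1 (0.933), Gpsm1 (0.906) and Stk11 (0.904).

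Other genes that regulate p53 were counted by lists. Of 20 tested genes for other p53 ligases and deubiquitinases, 4 were called higher in cKO as deposited and none after centring; their median centred change was -0.06. The 3 most changed among the called genes were Usp4, a deubiquitinase gene (0.39, limma adjusted p = 0.0262; centred 0.14), Cop1, a ligase gene that p53 can also induce (0.34, adjusted p = 0.0453; centred 0.089), and Usp7, whose product stabilizes both p53 and Mdm2 (0.32, adjusted p = 0.0418; centred 0.075). Of 14 kinase genes, 4 were called higher as deposited, among them Mapk8 (0.85, limma adjusted p = 0.000702; centred 0.60, adjusted p = 0.0143), Csnk1d (0.41, centred 0.16) and Csnk1a1 (0.41, centred 0.16). After centring Mapk8 was the only one called higher and Chek1, named after its values were seen, the only one called lower (adjusted p = 0.0456). In dKO against control, Atr, a kinase of the DNA damage response, was the 1 kinase gene called as deposited (-0.38, limma adjusted p = 0.0267; centred -0.36, adjusted p = 0.0377). After centring a second, Chek2, was also called lower (-0.35, adjusted p = 0.0498); it was named after its values were seen.

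Of the other lists, 4 of 17 genes for acetylation and methylation of p53, 3 of 10 tested partners and relatives of p53, 1 of 9 tested Mdm2 inhibitors and nucleolar proteins, and 3 of 12 tested paralogs of the set were called higher in cKO as deposited, and none lower. These shares, and those of the ligase and kinase lists, lie under the 34.3% of all genes called higher. After centring a single gene of these was called in cKO, Wrap53 (background 3.72%). In dKO against control none of them was called as deposited. After centring Ccng2 and Sirt1, a deacetylase gene, were called lower there (background 4.69%). Sirt1 (-0.26, limma adjusted p = 0.0499) was named after its values were seen. Rps27l, a ribosomal protein gene known as a p53 target, rose by 0.52 (limma adjusted p = 0.00486; centred 0.27, adjusted p = 0.207). Among the Ppm1 phosphatase genes, Ppm1b (0.40), Ppm1e (0.39) and Ppm1a (0.31) were called higher as deposited, with centred changes of 0.15, 0.14 and 0.062, beside 0.31 and 0.06 for Ppm1d. Cdkn2a, whose Arf product inhibits Mdm2, stood at a mean of 0.0132 TPM in control and at 0 in each of the cKO libraries, and Trp63 at 0.0294 and 0.0192 TPM in control and cKO; neither passed the filter. Against these lists, 22 of 25 tested p53 effector genes, such as Eda2r (2.78), Sesn2 (1.73) and Polk (1.66), were called higher in cKO as deposited and 16 after centring (median centred change 0.66), and none was called in dKO against control. In dKO against cKO 20 of the 25 were called lower as deposited and 15 after centring, against 38.8% and 3.83% of all genes. No gene of the other 6 lists was called lower there after centring. The list of effectors was written with results of these data known and is not independent evidence.

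**Figure D4:**
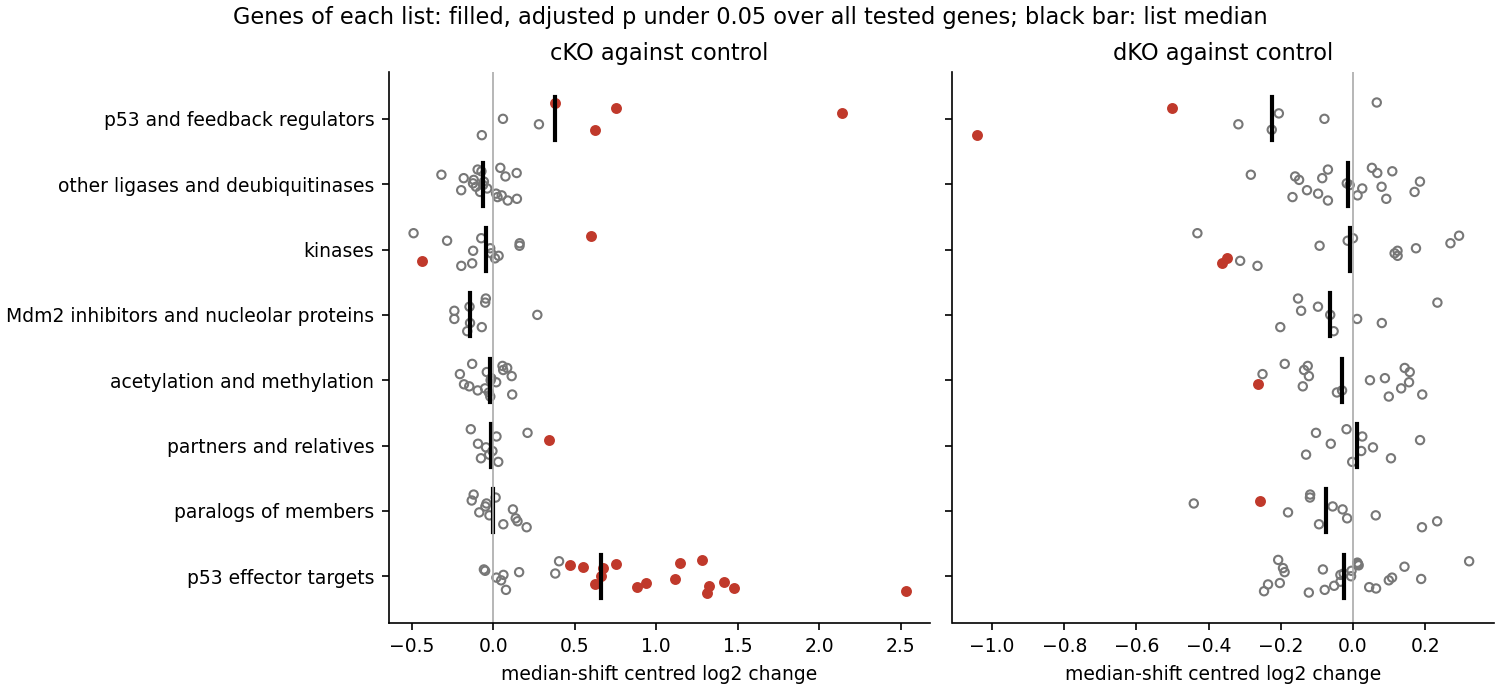
Median-shift centred log2 changes of the tested genes (points) of each list in cKO against control and dKO against control; filled points have an adjusted p under 0.05 over all tested genes, and black bars are list medians. In cKO the p53 effector targets (median 0.66) and the feedback set (median 0.38) extend to the right, while the medians of the other 6 lists lie between -0.14 and 0.00 (-0.0041 before rounding).

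Cell type markers moved with the same comparisons. The shares of all genes called higher in cKO, 34.3% as deposited and 3.72% centred, are the background for counts of markers higher in cKO. Of the 11764 genes, 128 were called lower in cKO than in control as deposited and 348 centred. In dKO against control 400 were called lower as deposited and 552 centred, while 210 and 440 were called higher. No pallial marker of the 7 listed was at 0 throughout a group, with a summed level of 141 to 162 TPM in control, 143 to 173 in cKO and 89.1 to 135 in dKO. In cKO 1 of them was called lower than control as deposited (Neurog2, -0.49, limma adjusted p = 0.0189) and 3 after centring (Emx1, Eomes and Neurog2). In dKO against control 2 were called lower as deposited (Eomes, -0.57, and Neurod6, -0.63; adjusted p = 0.0181 and 0.0374) and 3 after centring (these and Emx1). All 6 microglia markers were called higher in cKO, also after centring. Their summed level was 8.38 to 10.4 TPM in control, 37.1 to 54.8 in cKO and 10.2 to 15.2 in dKO, and none of them was at 0 throughout a group. In dKO against cKO all 6 were called lower as deposited and 5 after centring, against 38.8% and 3.83% of all genes. Of the tested pallial, vessel, meningeal and hem markers, 2 of 7, 1 of 4, 1 of 4 and 1 of 3 were called lower there as deposited, and none after centring. Of the vessel markers, 4 of 4 tested were called higher in cKO as deposited and 2 after centring, with a summed level of 7.84 to 10.8, 16.2 to 21.5 and 10.3 to 16.7 TPM in the same order. Of the markers of meninges and mesenchyme, 3 of 4 tested were called higher in cKO and 1 after centring (23.0 to 39.9, 41.6 to 49.9 and 36.3 to 53.05 TPM). In dKO against control 1 meningeal marker was called higher as deposited (Col3a1, 0.80, limma adjusted p = 0.0409), and after centring Col3a1, Lum and the vessel marker Kdr were. Of the 3 tested markers of cortical hem and choroid plexus 1 was called higher in cKO, the background share, and none after centring, with sums of 38.9 to 96.6, 68.4 to 239 and 62.5 to 281 TPM in control, cKO and dKO. None of 5 blood markers was called in any comparison (1844 to 3042 TPM in sum over all libraries). Ventral telencephalic markers summed to 1.73 to 2.43 TPM in control embryos, 3.43 to 5.29 in cKO embryos and 1.68 to 3.65 in dKO embryos. The 1 tested, Dlx1, was called higher in cKO than in control (0.58, limma adjusted p = 0.0244) and lower in dKO than in cKO (adjusted p = 0.0307), and in neither after centring. Cells outside the Cre lineage keep Trp53 and could hold RNA of these genes, and the part of these cells in the values of the 7 genes was not tested.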

How the data were processed

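The authors deposited TPM values, 1 table per embryo with 1 value per gene symbol. The unit was inferred from the values, which are fractional and sum to 1000000; no header names it. Per the submitters' processing notes HISAT2 and mm10 were used, with no role or version; the quantification tool, the annotation and the handling of shared or opposite-strand reads are not given in the sources used here. The depth is unknown.

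After a filter at a mean of 1 TPM (11764 genes, all 7 members included), log2(TPM + 1) of the 3 groups was fitted together with limma (3.58.1, R 4.3.3; lmFit, eBayes with trend), and p-values were Benjamini-Hochberg adjusted over all genes that passed (calls under 0.05). The ratio of Mdm2 to Mdm4 used exact permutation tests over 70 assignments. Centring removes from each library its median log2 deviation from the mean profile. Protein-coding genes were those of GENCODE release M21 (GRCm38, which is mm10), nuclear only. Named genes are the members, Rnu11, annotated neighbours, up to 3 most changed called genes per list, paralogs, and the 3 genes most correlated with each member, without predicted genes and pseudogenes. Alternatives were a pseudocount of 0.1, other filters, quantile normalization, RefSeq rescaling, sample weights, pairs of groups, the replicate block and leaving out embryos. On simulated data for cKO against control (11764 genes, 200 of them changed by 1 on the log2 scale) 187 were recovered with 8 false calls. The simulated noise was drawn for each gene on its own, with no shift common to most genes. It therefore checks the running of the fit and does not measure false calls under the shift seen in cKO. Members and lists were chosen with earlier results of these data known.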

Additional observations from a re-analysis of the deposited data

Results flagged for a closer look

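A value far from the others of its group was sought with Dixon's test for the 7 genes and the Mdm2 to Mdm4 ratio. Of 24 groups of 4 embryos, 1 passed the 95% limit, where chance gives about 1.2. It was Trp53inp1 in dKO: embryo 1 (3.47 TPM) lay far below the other 3 (4.98 to 5.25 TPM), and the gap made up 0.843 of the whole range. The same embryo had the least Trp53 (0.920 TPM) and the most Mdm2 (15.4 TPM) among the dKO embryos.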

How the results depend on the processing

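Of 477 changes of single members under an alternative, 443 had the direction and the side of the threshold they had as deposited, 23 lost a call, 5 gained one and 6 changed sign. The 477 include fits that left out an embryo of the group outside the comparison, where the log2 change cannot move although its p-value can. The sign changes were Trp53 in cKO against control (-0.10 with quantile normalization, -0.070 with centring, -0.0099 with RefSeq rescaling) and Rchy1 in dKO against control (-0.063 with sample weights, and -0.014 to 0.12 when 1 embryo was left out). RefSeq rescaling, and centring without control embryo 1, were chosen after seeing the data.

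In cKO against control 4163 genes were called, but 1900 with a filter at 5 TPM, 810 with quantile normalization, 786 with centring, 1539 with protein-coding rescaling, 865 with RefSeq rescaling and 655 with centring and no control embryo 1. Leaving out 1 embryo gave 2468 to 4353, and fewer by over 1.5 times without control 2 (2675), cKO 2 (2468) or cKO 4 (2526). In dKO against control 610 genes were called, and in the same order of settings 294, 1029, 992, 1080 and 1071, with 1579 under sample weights; leaving out 1 embryo gave 333 to 705, with the low values without control 3 (354) and control 4 (333). In dKO against cKO 4636 were called, then 2220, 798, 698, 1139, 1012 and, with centring and no control embryo 1, 728; leaving out 1 embryo gave 3082 to 4851, with the low values without cKO 2 (3082) and cKO 4 (3089).

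Members called in cKO against control were 3 with centring and no control embryo 1, where Rchy1 was lost (limma adjusted p = 0.0545). In dKO against control they were 1 with no filter, with the 5 TPM filter (which leaves Trp53 untested), with protein-coding rescaling and in the fit of 2 groups, 4 with sample weights (Mdm2 and Mdm4 added), 3 with RefSeq rescaling (Mdm4 added), and 1 to 3 when an embryo was left out. The cause of these changes was not tested.

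Same-numbered embryos of different groups did not deviate together: none of 12 pairs had a correlation over 0.1 (-0.0954 to 0.0745). With the replicate block the calls were 2979, 409 and 3608 genes in the 3 comparisons. For the Mdm2 to Mdm4 ratio the replicate block gave the differences 0.36 and -0.27 with an exact sign-flip adjusted p = 0.188, since 4 pairs cannot reach p = 0.05; leaving out 1 embryo gave 0.31 to 0.42 for cKO against control, -0.33 to -0.18 for dKO against cKO (exact permutation, adjusted p = 0.0429 to 0.0857 in both) and 0.035 to 0.19 for dKO against control (0.0857 to 0.80).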
